A study of Mus musculus with 44 samples.

Results

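CpG-dense tiles are the stretches of the mouse genome in which reduced representation bisulfite sequencing (RRBS) read the most cytosines. They were defined as autosomal windows of 1000 bp, cut at every multiple of 1000 bp of the GRCm38 (mm10) genome, that held 40 or more measured cytosines in each of the 9 deposited tables of percent methylation. The rule uses only the number of measured cytosines, never their methylation. It found 5412 tiles, which is 2.82% of the 192115 autosomal tiles with any measured cytosine and 8.19% of the 66119 tiles with at least 3 cytosines shared by the 9 tables, the set over which every test was run. The tiles hold 317719 of the shared cytosines, 35.1% of all of them, and lie on all 19 autosomes.

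Adult male wild-type C57BL/6J mice, 8 to 12 weeks old and housed singly, served as a model of Gulf War Illness, and each library is whole blood, hippocampus or frontal cortex. Every animal, controls included, drank corticosterone (CORT, a stress hormone) at 200 mg/L in 0.6% ethanol for 7 days. On day 8 all were injected with 4 mg/kg of DFP (diisopropyl fluorophosphate, which blocks acetylcholinesterase for good), and 7-day courses of CORT then alternated with weeks off until 5 weeks had passed. On the last day they received saline, or 0.5 mg/kg of lipopolysaccharide (LPS, a bacterial cell wall component that triggers inflammation). Saline tissue was taken at 6 h, with 4 libraries of blood, 3 of hippocampus and 4 of cortex. LPS tissue was taken at 6, 12 and 24 h, with 4, 3 and 3 libraries of blood, 4, 3 and 4 of hippocampus and 4, 4 and 4 of cortex. There was no group without CORT and DFP and no saline group at 12 or 24 h, so at those times LPS and hours since the injection cannot be told apart. Because the labels do not say which libraries share a mouse, p-values measure the spread between libraries.

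In mammals a methyl group is carried mainly by cytosines followed by guanine (CpG). Most of the genome has lost CpGs in evolution and its remaining ones are methylated, whereas CpG islands, which surround many promoters, keep a high CpG density and are usually free of methylation in every cell type. Where an island is methylated, it is often at a developmental gene, an imprinted gene or inside a gene body. RRBS cuts DNA at a CpG-containing site and reads the short fragments, so it samples islands most densely.

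The sequences of 6 promoters show what such a tile looks like and where its measured cytosines lie. They were chosen, after their values were seen, to cover the range of behaviour: Tmem131 has one of the highest numbers of measured cytosines of any tile, Hoxa5 and Cplx1 lie in tiles called higher in blood after LPS, Hoxa6 shows a tile whose parts differed, 4933428G20Rik was methylated in blood, and Slc5a5 was higher in brain. Each is the RefSeq (GRCm38.p6) promoter from 250 bases before to 50 after the annotated start, 5′ to 3′ on the gene's strand. Capitals mark the CpGs at which a cytosine was measured in all 9 tables.
Tmem131, chr1:36939478-36939777, minus strand: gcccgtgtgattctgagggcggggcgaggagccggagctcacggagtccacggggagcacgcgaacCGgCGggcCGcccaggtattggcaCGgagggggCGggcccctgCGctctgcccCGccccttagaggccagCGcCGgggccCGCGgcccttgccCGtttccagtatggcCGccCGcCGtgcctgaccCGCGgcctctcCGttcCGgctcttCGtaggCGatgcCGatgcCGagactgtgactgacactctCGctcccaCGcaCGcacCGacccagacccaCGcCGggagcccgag
Hoxa5, chr6:52204538-52204837, minus strand: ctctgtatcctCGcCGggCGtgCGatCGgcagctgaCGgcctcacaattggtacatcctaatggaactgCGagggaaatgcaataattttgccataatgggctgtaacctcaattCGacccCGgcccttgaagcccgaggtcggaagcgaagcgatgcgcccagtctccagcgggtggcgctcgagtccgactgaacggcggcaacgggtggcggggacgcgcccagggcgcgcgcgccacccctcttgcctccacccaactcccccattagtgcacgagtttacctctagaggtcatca
Hoxa6, chr6:52208623-52208922, minus strand: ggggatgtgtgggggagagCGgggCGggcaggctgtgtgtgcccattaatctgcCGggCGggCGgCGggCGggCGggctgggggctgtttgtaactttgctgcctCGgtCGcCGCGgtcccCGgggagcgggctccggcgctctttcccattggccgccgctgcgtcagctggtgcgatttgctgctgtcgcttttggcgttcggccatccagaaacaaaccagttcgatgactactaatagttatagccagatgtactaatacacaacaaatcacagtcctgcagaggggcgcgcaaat
Cplx1, chr5:108549978-108550277, minus strand: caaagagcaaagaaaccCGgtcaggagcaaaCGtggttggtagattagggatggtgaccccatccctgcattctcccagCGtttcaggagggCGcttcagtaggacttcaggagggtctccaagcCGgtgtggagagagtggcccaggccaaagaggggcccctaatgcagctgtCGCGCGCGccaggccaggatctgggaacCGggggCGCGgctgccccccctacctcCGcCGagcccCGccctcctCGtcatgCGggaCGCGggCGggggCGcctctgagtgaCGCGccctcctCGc
4933428G20Rik, chr11:97500291-97500590, minus strand: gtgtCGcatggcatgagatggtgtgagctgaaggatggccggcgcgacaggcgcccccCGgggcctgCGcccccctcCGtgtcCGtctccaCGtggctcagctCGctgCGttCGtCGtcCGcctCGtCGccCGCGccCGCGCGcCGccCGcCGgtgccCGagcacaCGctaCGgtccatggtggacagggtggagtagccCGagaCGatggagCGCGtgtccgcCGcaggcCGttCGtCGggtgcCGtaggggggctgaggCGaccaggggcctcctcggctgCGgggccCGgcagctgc
Slc5a5, chr8:70892708-70893007, minus strand: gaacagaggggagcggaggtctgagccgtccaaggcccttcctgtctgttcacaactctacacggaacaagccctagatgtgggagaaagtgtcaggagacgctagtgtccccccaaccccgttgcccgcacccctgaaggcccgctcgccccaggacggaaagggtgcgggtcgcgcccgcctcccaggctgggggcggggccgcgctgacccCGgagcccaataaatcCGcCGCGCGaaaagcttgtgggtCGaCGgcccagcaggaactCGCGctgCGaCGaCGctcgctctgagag

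In the Tmem131 promoter 29 of 38 CpGs were measured, and their mean methylation was 1.33% ± 0.84 (SD, n = 4) in saline blood and 1.23% ± 0.95 (n = 4) 6 h after LPS. The Hoxa5 promoter, with 9 of its 29 CpGs measured, stood at 24.2% ± 2.64 (n = 4) in saline blood and 71.4% ± 7.45 (n = 4) in LPS blood, against 6.67% ± 1.22 (n = 3) in saline hippocampus. The Hoxa6 promoter, 13 of 26 CpGs measured, stood at 7.03% ± 0.84 (n = 4) and 4.08% ± 1.31 (n = 4) in the same blood groups. At Cplx1 all 24 CpGs were measured and read 1.88% ± 0.39 (n = 4) in saline blood and 5.46% ± 1.32 (n = 4) after LPS. The 4933428G20Rik promoter, the densest of the set with 36 of 42 CpGs measured, was at 86.4% ± 1.78 (n = 4) in saline blood and 27.4% ± 1.16 (n = 3) in saline hippocampus. The Slc5a5 promoter, with 12 of 29 CpGs measured, was at 4.58% ± 0.72 (n = 4) in saline blood and 19.9% ± 1.22 (n = 4) in saline cortex. These window values were not tested apart from the tiles that hold them.

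The files give a percentage per cytosine and no read counts, so the depth behind each value is unknown, and no counting interval can be given. Each table held 1083654 to 1380165 cytosines, of which 904678 autosomal ones were common to all 9. The check of leukocyte genes went in part against the label of saline blood. Of 15 leukocyte genes with a tile over their span or within 1 kb, 9 were at least 10 points lower in blood 6 h after LPS than in both saline brain regions, but only 4 were so in saline blood. The tile at Spi1, which encodes the myeloid transcription factor PU.1, was at 70.8% in saline blood, 4.6% in blood 6 h after LPS, 75.9% in saline hippocampus and 75.6% in saline cortex. At Csf3r, the receptor for the granulocyte growth factor, the 4 values were 36.0%, 3.4%, 59.0% and 68.3%. Saline blood was at least 10 points above LPS 6 h blood at 9 of the 15 genes. Others did not go this way: Coro1a (41.4 to 45.1%), Laptm5 (83.3 to 87.8%) and Arhgap45 (66.6 to 69.7%) were higher in LPS 6 h blood than in saline blood. At Ptprc saline blood, at 25.7%, was above saline hippocampus (7.4%) and cortex (8.4%). Over the 15 genes the median was 65.5% in saline blood (range 0.650 to 83.3%), 44.7% in LPS 6 h blood (0.359 to 87.8%), 70.7% in saline hippocampus and 72.1% in saline cortex. Every comparison of LPS with saline blood below rests on these 4 saline libraries, and the part of this difference in the results was not tested. The comparisons that leave saline blood out are those between LPS times and between tissues at 6 h after LPS.

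Methylation was close to 0 in most CpG-dense tiles, in every tissue and after every treatment. A tile's level is the mean percentage over its shared cytosines, and the group mean was under 2% in all 12 groups at 3980 tiles (73.5%), against 20.4% of all tiles tested. It was under 5% in all 12 groups at 4957 tiles (91.6%), and 80% or more in all 12 at 7, a class that held 26.4% of all tiles tested. The median dense tile in saline blood was at 0.417, 0.817, 0.763 and 0.491% in the 4 libraries, or 0.622% ± 0.198 (SD, n = 4). It was at 0.391, 0.419 and 0.390% in the 3 saline hippocampus libraries, and at 0.380, 0.310, 0.619 and 0.307% in the 4 saline cortex libraries. The saline blood libraries overlapped the cortex libraries and all but 1 lay above the hippocampus ones. Over all tiles the same median was 57.7% ± 0.0769 (n = 4) in saline blood, 50.9% ± 0.982 (n = 3) in saline hippocampus and 54.8% ± 3.54 (n = 4) in saline cortex.

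**Figure D1:**
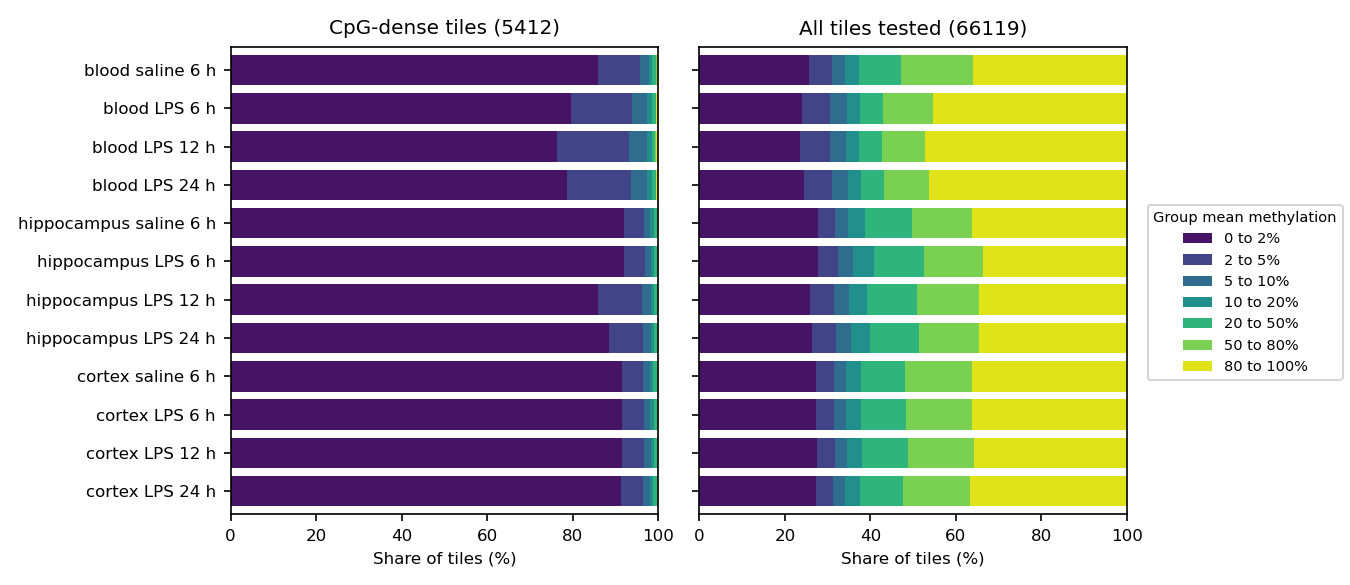
Share of tiles (x axis, %) in 7 classes of group mean methylation (colours), for CpG-dense tiles (left) and all tiles tested (right), 1 bar per group. Between 76.3 and 92.0% of the dense tiles lie under 2% in each group, against 23.5 to 27.8% of all tiles.

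After LPS the blood bars in the plot of methylation classes hold fewer dense tiles under 2%: 86.0% in saline blood and 79.6, 76.3 and 78.8% at 6, 12 and 24 h. The libraries within a group fell at separate levels. In the brain, 21 of 30 libraries had 91.1 to 93.4% of dense tiles under 2%, and the other 9 had 78.9 to 84.9%. Of these 9, none was saline hippocampus, 1, 2 and 2 were hippocampus at 6, 12 and 24 h after LPS, and each cortex group held 1. Saline blood libraries ranged from 77.2 to 89.9%. Blood at 6, 12 and 24 h after LPS ranged from 70.1 to 85.1, 69.8 to 84.6 and 71.4 to 85.5%, so each LPS group overlapped saline.

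By position, 3042 tiles (56.2%) held a transcription start annotated by RefSeq, 891 more had a start within 1 kb, 1379 lay inside a gene farther from any start, 27 lay within 1 kb of a gene and 73 had no gene within 1 kb. The 3042 tiles held the starts of 3893 promoters of 3483 genes, 12.4% of the 31396 autosomal promoters in the table. The 300-base promoter windows of the dense tiles had a median GC content of 68.3% and 30 CpGs, against 53.0% and 7 CpGs over all promoters. Their ratio of observed to expected CpGs was 0.892 at the median, against 0.389. Over the windows of all autosomal promoters, 151186 of 151187 measured cytosines fell on a CpG of the RefSeq sequence. Cytosines in overlapping windows were counted more than once.

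Motifs in these promoters were searched as plain letters on both strands. The GC box GGGCGG, bound by Sp1-type factors, was present in 80.8% of the windows in dense tiles and in 36.0% of all promoter windows of that length. The TATA box TATAAA was present in 3.80% against 13.6%, and CCAAT in 31.2% against 37.3%. The ETS-type letters CCGGAAG were found in 18.4% against 9.0%, the E box CACGTG in 10.8% against 7.14% and the CRE letters TGACGTCA in 3.67% against 1.83%. The windows in dense tiles also have the higher GC content given above, whose part in these shares was not tested, and a match is not a bound site.

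LPS blood differed from saline blood at a small share of CpG-dense tiles, and by large amounts at some. A tile was called when limma's moderated test gave an adjusted p (Benjamini-Hochberg over all 66119 tiles) under 0.05 and the groups differed by at least 5 percentage points. At 6 h 70 dense tiles were higher and 29 lower after LPS, 1.83% of the 5412, while 27.3% of all tiles were called (20.7% higher, 6.68% lower). The 12 h libraries gave 87 higher and 30 lower tiles, or 2.16%, against 28.9% of all tiles (23.1% higher, 5.79% lower). The 24 h libraries gave 69 and 33, or 1.88%, against 27.6% of all tiles (21.2% higher, 6.4% lower). The median dense tile was 0.15 points higher at 6 h, 0.20 at 12 h and 0.12 at 24 h, beside 0.30, 0.72 and 0.42 points over all tiles. When each library was first centred on its own mean over all tiles, the split of calls turned to 35 higher and 72 lower at 6 h, 33 and 102 after 12 h and 33 and 84 after 24 h. For centred libraries no share over all tiles is given, here or in the later comparisons, so these counts have no background beside them. That mean is 48.4% ± 0.129 (n = 4) in saline blood and 51.8% ± 1.11 (n = 4) 6 h after LPS, so centring lowers every tile by the larger amount in LPS blood, tiles near 0% included.

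**Figure D2:**
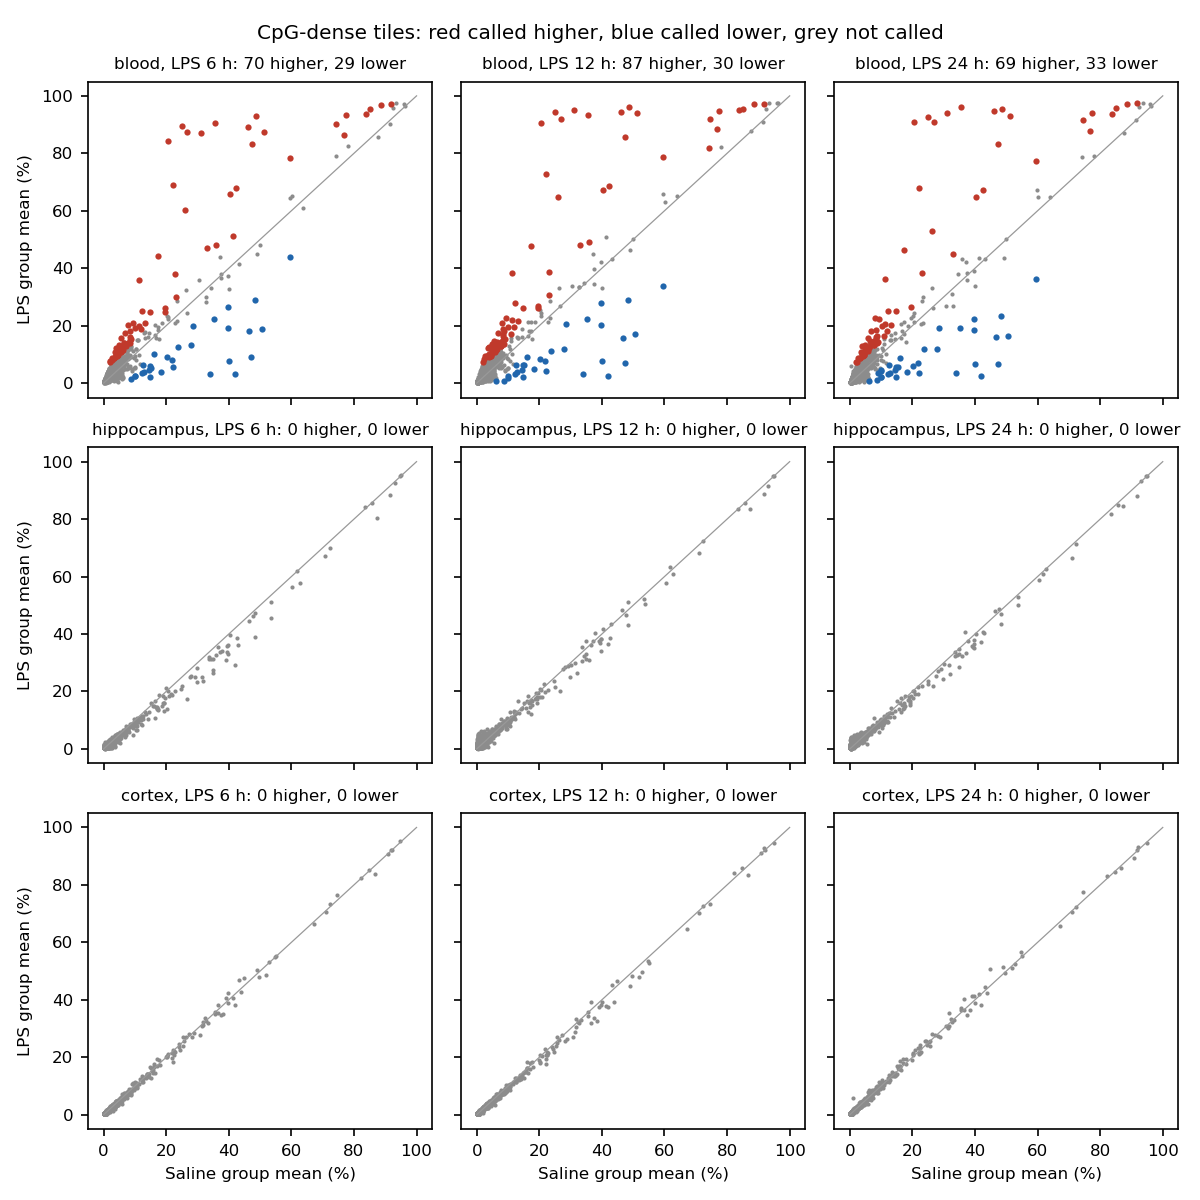
Group mean methylation of each CpG-dense tile in saline (x axis, %) and LPS libraries (y axis, %), for 3 tissues (rows) and 3 times (columns). Red points were called higher, blue ones lower and grey ones neither. Called tiles appear in the blood panels, 70 higher and 29 lower at 6 h, and in no brain panel.

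The largest rise at 6 h was in Ccm2l, which encodes a scaffold protein of the vessel wall's signalling. This tile, chr2:153071000-153071999, lies inside the gene and holds 45 shared cytosines. Saline blood libraries read 31.9, 24.1, 17.7 and 26.0%, and LPS blood libraries 94.1, 81.7, 91.7 and 90.4% at 6 h. The 12 h libraries read 94.9, 94.4 and 94.1%, those taken after 24 h 95.3, 93.2 and 89.3%. The groups did not overlap, and the difference at 6 h was 64.5 ± 3.91 points (SE; limma, adjusted p = 4.93e-06). All 30 brain libraries lay far below, with group means from 6.2 to 10.6%.

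A tile inside Rnf220, chr4:117304000-117304999, with 50 cytosines, rose by a similar amount. Rnf220 encodes a ubiquitin ligase. Saline blood read 23.2, 20.7, 20.1 and 18.3%, and LPS blood 86.0, 77.3, 88.1 and 85.1% at 6 h. Its 12 h values were 90.9, 90.4 and 90.9%, its 24 h values 89.6, 94.0 and 88.8%, all far above saline. Its rise at 12 h, 70.1 ± 2.67 points (SE; limma, adjusted p = 7.24e-06), was the largest of any dense tile at that time. In brain its group means were 5.3 to 7.1%.

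The other tiles with the largest rises at 6 h were in 2700081O15Rik (chr19:7423000-7423999) and Mfsd12 (chr10:81364000-81364999), the latter encoding a lysosomal transporter. The 2700081O15Rik tile went from 26.8 to 87.4% and the Mfsd12 tile from 31.1 to 87.1%, with SEs of 4.20 and 3.93 points. They differ in the brain: 2700081O15Rik was at 8.9% in saline hippocampus and 10.2% in saline cortex, while Mfsd12 was at 28.1 and 31.8%, close to its saline blood level. Zfpm1, a cofactor of the GATA factors of red cells and platelets, rose from 35.6 to 90.5% (chr8:122336000-122336999). Sh2b3, an adaptor that dampens cytokine signalling in blood cells, rose from 48.7 to 92.9%, its 4 saline libraries lying between 48.4 and 49.0% (chr5:121828000-121828999).

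The largest fall at 6 h was in Srcin1, which encodes a regulator of Src kinase known from neurons (chr11:97534000-97534999, 47 cytosines, inside the gene). Saline blood read 47.3, 37.6, 37.0 and 45.5%, and LPS blood 2.9, 5.2, 2.1 and 2.6% at 6 h, a difference of -38.7 ± 2.64 points (SE; limma, adjusted p = 7.00e-06). At 12 and 24 h LPS blood was at 2.4 and 2.5%. Saline hippocampus read 39.8, 36.4 and 35.6% and saline cortex 28.2, 25.9, 34.1 and 26.8%, so saline blood was at or above the brain and LPS blood below both.

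Dlx4os, a transcript antisense to the homeobox gene Dlx4, showed another order (chr11:95150000-95150999, 43 cytosines). Saline blood read 50.1, 46.5, 45.6 and 46.8%, LPS blood 6.7, 14.3, 6.6 and 8.4% at 6 h, and the 7 saline brain libraries 3.5 to 6.4%. LPS blood thus lay near the brain level and saline blood stood apart. The difference at 6 h was -38.2 ± 2.55 points (SE; limma, adjusted p = 6.40e-06). Dlx2, a homeobox gene of forebrain development, had the same order at its tile chr2:71544000-71544999, with 39.98% in saline blood, 7.6% 6 h after LPS, 4.8% in saline hippocampus and 6.6% in saline cortex. At the zinc finger gene Zfp316 (chr5:143254000-143254999) saline blood, at 50.6%, was close to saline hippocampus at 53.6% and cortex at 52.0%, and LPS blood was at 18.9%.

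**Figure D3:**
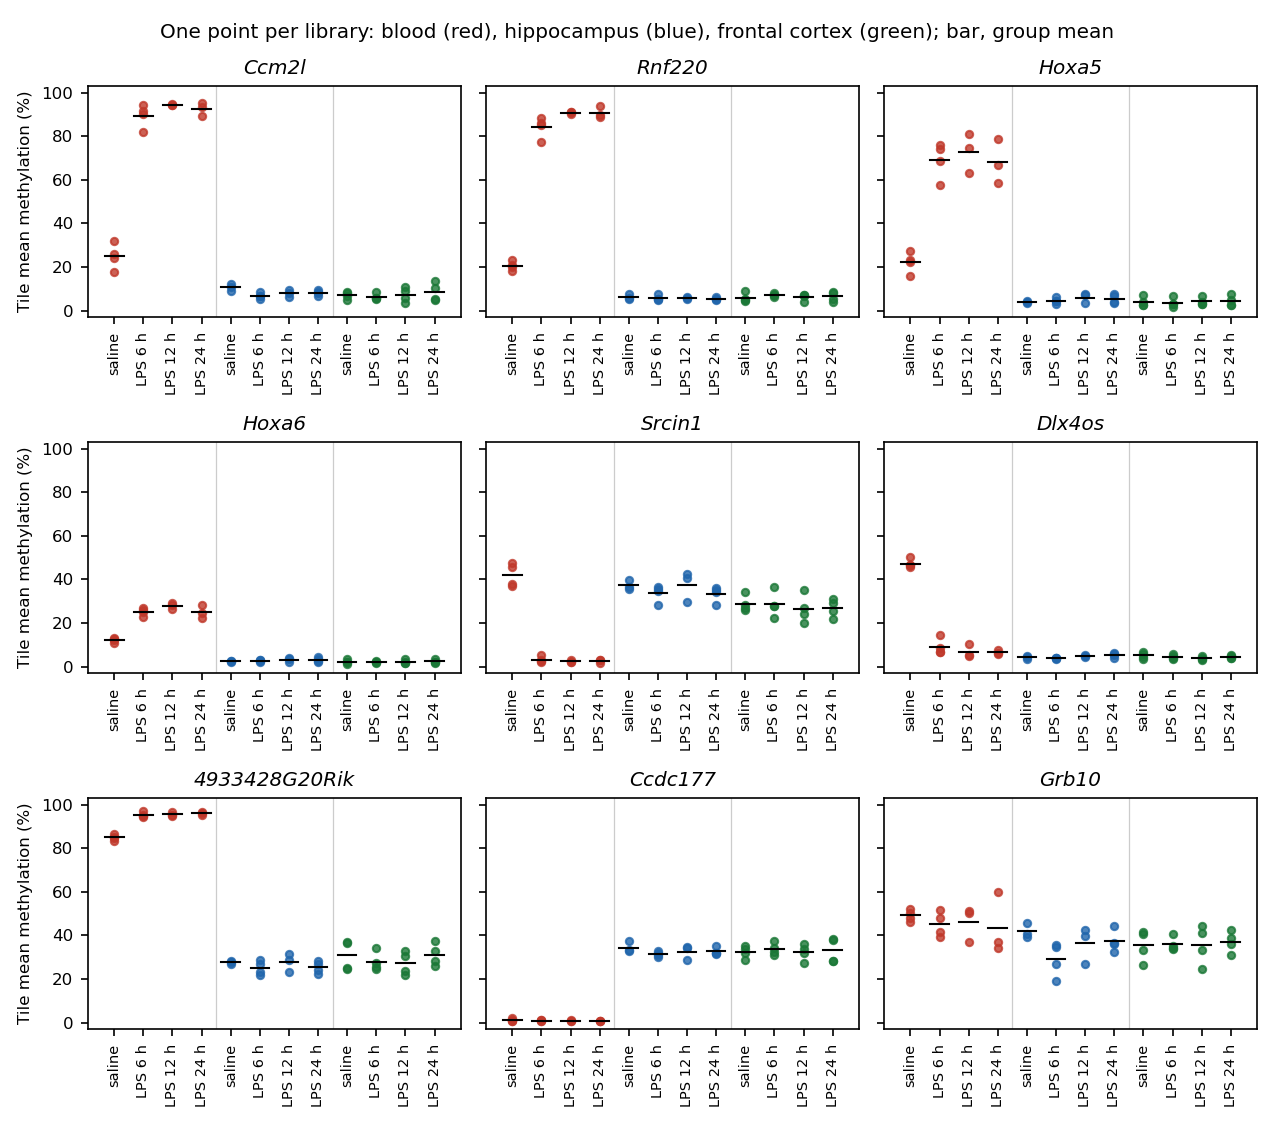
Mean methylation (y axis, %) of 9 CpG-dense tiles in every library (points) and group (bars mark the mean), by tissue and treatment along the x axis. At Ccm2l, Rnf220 and Hoxa5 the LPS blood libraries sit above saline blood, at Srcin1 and Dlx4os below it, while at 4933428G20Rik and Ccdc177 blood and brain stand apart in every group.

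The same tiles recurred at the 3 times, which share their saline libraries. In all, 125 dense tiles were called in blood at any time, 59 of them higher at all 3 times, 29 lower at all 3, and none in opposite directions. The 59 had medians of 11.3% in saline blood, 20.8, 21.8 and 22.5% in LPS blood, 7.3% in saline hippocampus and 7.0% in saline cortex. At 47 of them saline blood lay between LPS blood and both saline brain regions, and at 6 it lay below all of these. The 29 had medians of 22.1% in saline blood, 7.6, 6.8 and 6.2% in LPS blood, 6.6% in saline hippocampus and 6.5% in saline cortex. At 25 of these saline blood lay above LPS blood and both saline brain regions. Of the 59 risers 39 lay inside a gene away from its start and 13 held a start, against 21 and 1 of the 29 fallers. For comparison, 25.5% of all dense tiles lay inside a gene away from a start and 56.2% held one.

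Called tiles were mostly those that saline blood did not hold near 0%. A tile under 5% in saline blood cannot be called lower, because a call needs 5 points. That limit sets part of the split between higher and lower calls. At 2 to 5% in saline blood 15 of 526 dense tiles were called at 6 h, all higher. Of 4656 dense tiles under 2% in saline blood 1 was called at 6 h, whereas of 64 at 20 to 80% 22 were higher and 17 lower, 60.9% of them. Among other tiles at 20 to 80% the share called was 71.8%. The order was the opposite at 80 to 100% in saline blood, where 4 of 10 dense tiles were called at each time, all higher (40%), beside 13.7, 15.9 and 14.7% of other tiles. At dense tiles holding a start 0.559% were called at 6 h, beside 10.7% of other tiles holding a start. Inside genes away from starts the shares were 4.64 and 36.7%. With no minimum difference, 679 dense tiles passed adjusted p under 0.05 at 6 h, 602 higher and 77 lower, while 32.6% of all tiles passed. Of these, 532 rose by less than 5 points, with a median rise of 1.56 points, from a median of 1.70% in saline blood to 3.31%. The levels of whole libraries also differ by such amounts, as given above, and their part in these small rises was not tested.

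**Figure D4:**
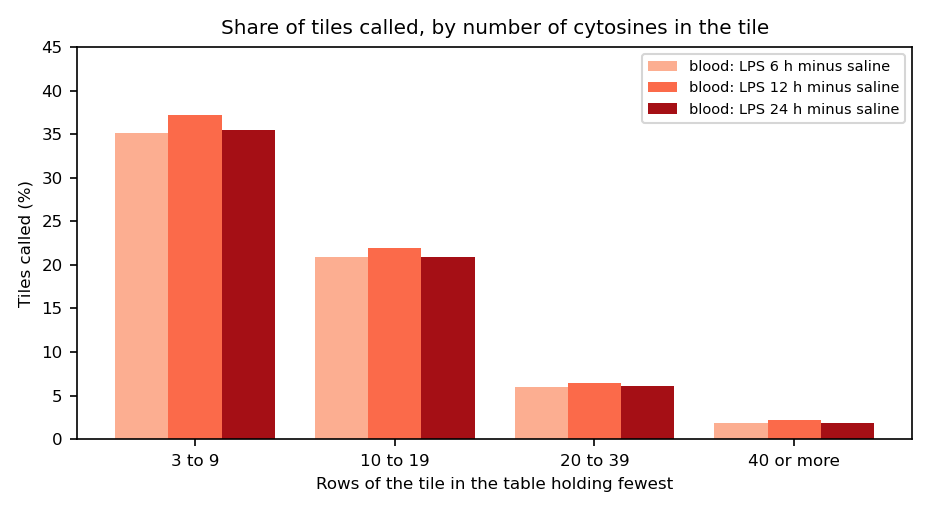
Percent of tiles called in blood (y axis) by the number of measured cytosines in the table holding fewest (x axis), 1 bar per time after LPS. The share falls from 35.2% of tiles with 3 to 9 cytosines to 1.83% of tiles with 40 or more at 6 h.

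The share of tiles called in blood fell with the number of cytosines in a tile. At 6 h it was 35.2% of 44249 tiles with 3 to 9 cytosines, 21.0% of 9559 with 10 to 19, 6.02% of 6899 with 20 to 39 and 1.83% of the dense tiles. Median saline blood levels fell in the same order, 79.3, 4.28, 0.772 and 0.640%. At the boundary of the rule, the 225 tiles with exactly 40 cytosines in their smallest table had a median of 0.563% in saline blood and the 235 with 39 had 0.782%.

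In the tiles named for the largest changes, most cytosines moved the same way, which so large a change of the mean largely requires. The called tiles as a set were not examined by single cytosine. In Rnf220 all 50 cytosines were at least 5 points higher 6 h after LPS, by 45.2 to 74.5 points. In saline blood its 50 cytosines spread over 13.1 to 28.6%, and after LPS 41 of them were at 80% or more. Each of the 45 cytosines of Ccm2l, the 42 of Mfsd12 and the 47 of Zfpm1 was also at least 5 points higher. All 47 cytosines of Srcin1 and all 43 of Dlx4os were at least 5 points lower. In Dlx4os the 43 saline values lay between 29.0 and 68.0%, and 40 of them were under 20% after LPS.

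Hoxa6 differed from these, since its tile holds stretches that went opposite ways. The tile, chr6:52208000-52208999, rose from 13.3, 10.8, 12.8 and 12.1% in saline blood to 27.0, 22.8, 25.8 and 25.1% 6 h after LPS, a difference of 12.98 ± 1.41 points (SE; limma, adjusted p = 7.35e-05). Of its 42 cytosines 19 were at least 5 points higher, by up to 57.2 points, and 5 were at least 5 points lower. All 19 lay on 1 side of a gap in the measured cytosines and the 5 on the other, as the plot of single cytosines shows. The 15 cytosines measured in the promoter sequence printed above averaged 7.03% in saline blood and 4.08% after LPS, so the measured part of the promoter did not take part in the rise of its tile. The CpGs in the rest of that sequence were not measured. In the Hoxa5 tile all 42 cytosines were higher, by 23.9 to 61.1 points, those measured in its promoter included.

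**Figure D5:**
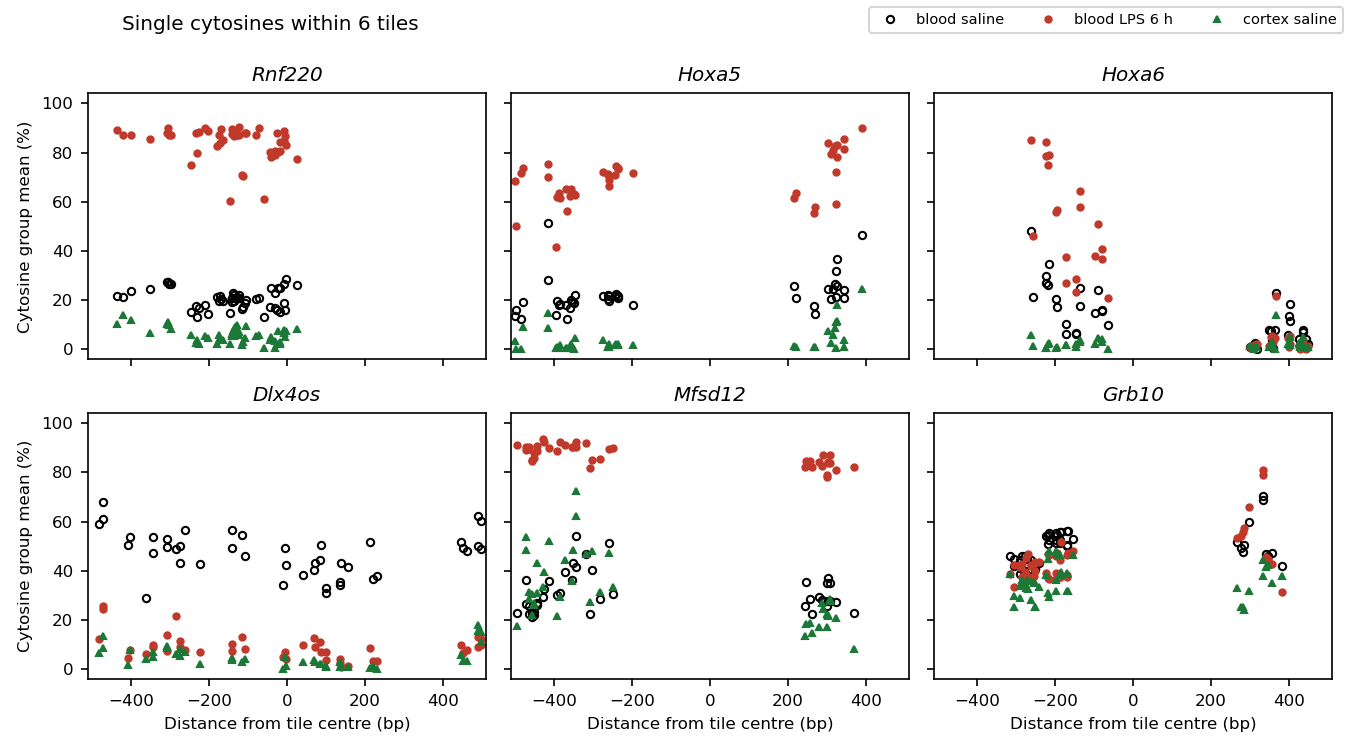
Group mean methylation of each shared cytosine (y axis, %) by distance from the centre of its tile (x axis, bp) in 6 tiles, for saline blood (open circles), blood 6 h after LPS (red) and saline cortex (green triangles). At Rnf220, Hoxa5 and Mfsd12 every cytosine is higher after LPS and at Dlx4os every one is lower, while in Hoxa6 a left stretch rises and a right stretch stays low.

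Homeobox and other developmental transcription factors formed the largest gene list, and it was chosen with earlier results known. Of 140 genes listed 74 had a dense tile, in 98 tiles, whose median was 2.10% in saline blood, 2.85% 6 h after LPS, 1.24% in saline hippocampus and 1.40% in saline cortex. In blood 5 of the 98 were called higher and 6 lower at 6 h. After 12 h the counts were 6 and 6, and after 24 h 4 and 7. That is 11.2, 12.2 and 11.2% of the list at the 3 times, beside 1.83, 2.16 and 1.88% of dense tiles and 27.3, 28.9 and 27.6% of all tiles. The median difference over the 98 was 0.61 points at 6 h, beside 0.15 over all dense tiles and 0.30 over all tiles tested.

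Among those that rose was Hoxa5, a HOX gene of trunk patterning, in the tile chr6:52204000-52204999 that also overlaps the annotated span of Hoxa3. Saline blood read 22.3, 27.4, 22.9 and 15.9%, and LPS blood 74.0, 57.7, 76.1 and 68.7% at 6 h. It read 63.2, 74.5 and 81.0% in the 12 h libraries, then 66.6, 78.6 and 58.6% in the 24 h ones, with no overlap with saline. The difference at 6 h was 47.0 ± 4.62 points (SE; limma, adjusted p = 4.07e-05), and brain group means were 3.7 to 5.9%. Others that rose at 6 h, besides Hoxa6, included Gbx2 from 4.0 to 9.6% and Hoxa2 from 2.2 to 7.4%. Hoxd12 was called at 12 h only, at 7.8% in saline and 12.9% in LPS blood. The tiles that fell at 6 h, besides Dlx2, were those of Otx1 (21.8 to 8.1%), Tbx3 (20.1 to 9.1%), Isl2 (14.4 to 4.7%), Tbx1 (12.9 to 4.0%) and Irx5 (12.3 to 3.5%). Tbx2 joined them at 24 h, at 9.9% in saline and 4.7% in LPS blood. All are transcription factors of embryonic patterning. The smaller rises rest on few points: with libraries centred, Gbx2 and Hoxa2 were 2.22 and 1.90 points higher at 6 h and were not called, while Hoxa5 and Hoxa6 were. Hoxa2 also fell under 5 points at 6 h without saline replicate 3 (4.94) or LPS replicate 3 (4.99) or 4 (4.90). Hoxd12 fell under it at 12 h without saline replicate 1 (4.92) or LPS replicate 3 (4.03), and Tbx2 was at -4.88 and -4.92 points at 24 h without saline replicate 1 or LPS replicate 3.

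In the list of neuronal and synaptic genes 14 of 46 had a dense tile, in 18 tiles, and Cplx1, which encodes a regulator of synaptic vesicle fusion, was the 1 tile called in blood at each time. It read 3.0, 4.3, 2.1 and 3.7% in saline blood and 10.4, 6.7, 9.5 and 8.5% 6 h after LPS, a difference of 5.5 ± 0.813 points (SE; limma, adjusted p = 5.31e-04). It was at 1.0% in saline hippocampus. The rise was 4.96 points, under the limit of 5, without LPS replicate 1, and 2.12 points with libraries centred. No tile was called in blood at any of the 3 times for imprinted genes (6 tiles of 5 genes), housekeeping genes (13 of 10), leukocyte genes (8 of 5), glial genes (4 of 4), DNA methylation enzymes and readers (18 of 16) or glucocorticoid and cholinergic genes (16 of 16). Their median differences at 6 h were 0.39, 0.08, 0.24, 0.36, 0.07 and 0.51 points, in that order. Germline genes and clustered protocadherins had no dense tile.

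In hippocampus and frontal cortex no CpG-dense tile, and none of the 66119 tiles (0.0%), was called after LPS at 6, 12 or 24 h by limma. The smallest adjusted p of a dense tile was 0.205 in hippocampus at 6 h, 0.799 at 12 h and 0.638 at 24 h. Dense tiles with an unadjusted p under 0.05 numbered 87, 740 and 115 in hippocampus, and 13, 14 and 13 in cortex. At 6 and 24 h in hippocampus that was 1.61 and 2.12% of dense tiles, against 12.7 and 7.29% of all tiles. In cortex it was 0.240, 0.259 and 0.240% against 2.94, 2.93 and 3.15% at the 3 times. Only at 12 h in hippocampus was the dense share the larger, 13.7% against 6.21% of all tiles, and 726 of the 740 were higher after LPS. In that group 2 of 3 libraries were among those with fewer dense tiles under 2%, at 80.9 and 78.9%, beside 92.1, 91.3 and 91.8% in the saline libraries. Without replicate 2 of that LPS group, the library at 92.5%, 15 dense tiles were called, all higher. That is 0.277% of dense tiles, and the share over all tiles is not given here. Differences at dense tiles ran from -12.8 to 1.72 points at 6 h, -6.63 to 4.71 at 12 h and -6.62 to 4.04 at 24 h in hippocampus. In cortex they ran from -3.71 to 3.61, -5.68 to 2.79 and -3.62 to 5.85 points. In hippocampus at 6 h 17 dense tiles were past 5 points, all lower after LPS, with the imprinted gene Grb10 the lowest of them, and with libraries centred 1 dense tile was called lower.

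The blood responses differed from those of brain in the test of the difference itself, in a fit over all 44 libraries. At 6 h, 86 dense tiles rose more (or fell less) in blood than in hippocampus and 31 the reverse, 2.16% of dense tiles beside 24.1% of all tiles. Against cortex the counts were 71 and 28 (1.83%; 21.0% of all tiles). For 12 h they were 81 and 34 against hippocampus (2.12%; 22.0%) and 91 and 30 against cortex (2.24%; 22.4%). For 24 h they were 77 and 34 (2.05%; 22.5%) and 67 and 35 (1.88%; 20.5%). With centred libraries the splits against hippocampus turned to 29 and 4438, 28 and 3858, and 27 and 2603 at the 3 times, and those against cortex to 35 and 73, 32 and 292, and 31 and 78. At Rnf220 the rise in blood at 6 h was 64.0 ± 2.47 points (SE) larger than that in hippocampus, and at Dlx4os the fall was larger by 37.8 ± 1.65 points, a difference of -37.8 (limma, adjusted p = 1.28e-20 and 4.25e-19). This fit pools the spread of a tile over all 44 libraries, most of them brain. Its SEs and p-values therefore do not measure the spread of the blood libraries, and at Dlx4os the SE is below that of the blood difference alone.

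Between LPS times in blood, no dense tile and no tile at all (0.0%) was called by limma for 12 h against 6 h or 24 h against 6 h. These comparisons leave saline blood out. Unadjusted p was under 0.05 at 21 and 16 dense tiles, 0.39 and 0.30% of them, against 4.60 and 3.63% of all tiles. Differences reached from -10.2 to 7.9 points at 12 h and from -9.3 to 6.9 points at 24 h.

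Blood and brain differed at few CpG-dense tiles in saline animals. Against hippocampus 79 were higher and 32 lower in blood, 2.05% of dense tiles beside 30.4% of all tiles (15.9% higher, 14.4% lower). Against cortex 81 were higher and 40 lower, 2.24% beside 29.6% (14.3% higher, 15.3% lower). At 6 h after LPS, without the saline libraries, 169 and 25 were called against hippocampus (3.58%; 35.9% of all tiles, 26.5% higher and 9.46% lower) and 161 and 34 against cortex (3.60%; 33.0% of all tiles, 21.7% higher and 11.4% lower). Centring turned the LPS splits to 60 and 4744 against hippocampus and 75 and 112 against cortex, where the means over all tiles are 45.2 and 48.0%, below the 51.8% of LPS blood. It turned the saline split against hippocampus to 66 and 45.

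The widest gap in saline animals was at 4933428G20Rik, a gene with little known about it, whose promoter is printed above (tile chr11:97500000-97500999, 99 cytosines). Saline blood read 85.2, 83.5, 84.8 and 86.6%, saline hippocampus 28.4, 26.9 and 27.6% and saline cortex 36.6, 24.5, 37.0 and 25.0%. Blood was 57.4 ± 2.11 points (SE; limma, adjusted p = 5.11e-06) above hippocampus, and 70.2 ± 2.54 points above it at 6 h after LPS. A tile inside Rbfox3, the gene of the neuronal marker NeuN, was at 87.6% in saline blood, 42.9% in saline hippocampus and 41.4% in saline cortex (chr11:118891000-118891999). It was at 85.6% in LPS blood at 6 h. Tiles in Neurl1b, Fam171a2 and Mn1 were also higher in saline blood, at 74.3, 48.3 and 59.5% against 30.0, 7.0 and 20.2% in hippocampus.

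Other tiles were methylated in brain and nearly free of methylation in blood. At Ccdc177, a coiled-coil protein gene (chr12:80758000-80758999, 36 cytosines), the 14 blood libraries had group means of 0.7 to 1.1%. Saline hippocampus read 37.3, 32.7 and 33.2% and saline cortex 35.1, 31.7, 28.7 and 33.5%. The difference in saline animals was -33.3 ± 1.34 points against hippocampus (SE; limma, adjusted p = 5.11e-06) and -30.5 ± 0.972 points at 6 h after LPS. Ajm1, a gene of epithelial junctions, was at 6.6% in saline blood, 39.7% in saline hippocampus and 39.9% in saline cortex. The synaptic adhesion gene Nrxn2 had 2 such tiles, at 2.2 and 1.7% in saline blood and 21.6 and 12.0% in saline hippocampus. Slc5a5, the iodide transporter, read 7.2, 7.8, 6.7 and 9.8% in saline blood and 28.9, 23.8, 26.7 and 23.0% in saline cortex, and its tile at chr8:70892000-70892999 holds the promoter printed above. Further members of the list of neuronal genes called against cortex were Rbfox3 higher and Shank1, a postsynaptic scaffold, lower in blood, at 3.9 against 9.7%. Without cortex replicate 3 Shank1 was at -4.88 points, inside the limit. In the developmental list 12 of 98 tiles (12.2%) were higher in saline blood than in hippocampus, 12 were higher than in cortex, and none was lower. Over all dense tiles 2.05 and 2.24% were called in these comparisons in either direction, and over all tiles 30.4 and 29.6%.

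Hippocampus and cortex differed at 2 dense tiles in saline animals, 1 higher and 1 lower in hippocampus, 0.0370% of dense tiles beside 4.49% of all tiles (1.2% higher, 3.28% lower). Zfp503, a zinc finger gene of striatal development, read 22.1, 17.9 and 18.5% in hippocampus and 13.2, 13.5, 13.2 and 9.5% in cortex (adjusted p = 0.0445 by limma). Fut7, a fucosyltransferase of leukocyte adhesion, read 60.9, 61.2 and 66.0% in hippocampus and 76.2, 71.5, 76.4 and 74.5% in cortex (adjusted p = 0.0358 by limma). Neither call was steady: leaving out any 1 of the 7 libraries left 0 or 1 tile, and never Zfp503 or Fut7. Their adjusted p was then 0.0780 to 0.124 and 0.0528 to 0.122 by limma. At 6 h after LPS 5 tiles were called, all lower in hippocampus, 0.0924% of dense tiles beside 9.3% of all tiles (0.898% higher, 8.41% lower). They were Fut7 at 57.9 against 76.6%, and tiles of Anks1b, Foxo6, Myo15b and Sptbn4, with differences of -9.46, -9.22, -6.12 and -6.05 points. Fut7 alone was called without hippocampus replicate 4, and 2 tiles were called without hippocampus replicate 1, 2 or 3 or cortex replicate 3, and 3 without cortex replicate 4. Foxo6 lost its call on leaving out any library other than cortex replicate 4 (adjusted p of 0.0577 to 0.104 by limma). Sptbn4 lost it on leaving out any other than cortex replicate 1. The split also turned with libraries centred, to 6 tiles higher and 4 lower in hippocampus, where Myo15b (-3.26 points, adjusted p = 0.20 by limma) and Sptbn4 (-3.19 points, adjusted p = 0.129) were no longer called and Fut7, Anks1b and Foxo6 still were.

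The 8 dense tiles with the highest methylation over the saline groups all lay inside genes, namely in Scaf1, Srsf4, Etl4, Zfp865 (2 adjacent tiles), Abhd17a, Grin3b and Zfp467. Scaf1, a splicing-related factor, was at 96.0, 94.9 and 94.8% in saline blood, hippocampus and cortex, and Srsf4, a splicing factor, at 96.3, 94.8 and 92.0%. Zfp467 was the lowest of the 8, at 83.8, 72.3 and 71.2%, and it rose to 93.5% in LPS blood at 6 h. Dense tiles with 20% or more in any saline group numbered 86 of 5412, and 46 had 20% or more in all 3.

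At 22 dense tiles the level stayed between 20 and 80% in all 12 groups, 0.407% of dense tiles against 6.90% of all tiles. Of their 1131 cytosines 70.7% were themselves at 20 to 80% in saline cortex, 25.3% were under 20% and 3.98% were at 80% or more. Of the 22, 8 lay on chromosome 12 between 18 and 24 Mb, a stretch that holds 20 dense tiles in all. That stretch was noticed after the values were seen. Its tiles at chr12:19176000-19176999 and chr12:19704000-19704999, with no gene within 1 kb, were at 49.9 and 63.9% in saline blood and 39.6 and 54.9% in saline cortex. The other tiles nearest 50% were in or next to Jph4, Gm46603, Sema6b, Sema6c, Begain and Grb10. Sema6b and Sema6c encode semaphorins, guidance cues of growing axons.

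Grb10, an imprinted gene that restrains insulin signalling, had its tile at chr11:12026000-12026999, within 1 kb of a start. It read 52.1, 48.1, 46.0 and 50.3% in saline blood, 45.9, 39.1 and 40.8% in saline hippocampus and 40.6, 33.4, 41.3 and 26.5% in saline cortex. All 47 of its cytosines were between 20 and 80% in each of these groups. In hippocampus 6 h after LPS it read 34.5, 27.0, 35.8 and 19.2%, below the 3 saline libraries, but the test over all tiles did not pass (-12.8 ± 4.76 points, SE; limma, adjusted p = 0.334). Over all tiles the median of the LPS 6 h hippocampus libraries was 42.8% ± 3.30 (n = 4), beside 50.9% in saline. Begain, a gene of synaptic scaffolding, fell in blood from 62.2, 56.4, 61.7 and 57.2% to 29.7, 43.8, 56.4 and 46.3% at 6 h, where the highest LPS library, at 56.37%, lay just under the lowest saline library, at 56.44% (adjusted p = 0.0483 by limma). That call was lost without any 1 of 7 of the 8 libraries, all but LPS replicate 3, with adjusted p of 0.0752 to 0.115 by limma.

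The tiles with most measured cytosines were those of Fignl2 (158 in the smallest table), Tmem131 (154), Gata6 (153), Ank (151) and Otud4 (145). Tmem131, a transmembrane protein of the secretory pathway, read 0.259, 1.0, 1.4 and 0.388% in saline blood and 1.1, 0.361, 0.895 and 0.412% 6 h after LPS. Group means were under 2% in all 12 groups at Tmem131, Ank and Otud4, and between 1.3 and 3.7% at Gata6. Fignl2 stood higher, from 7.8 to 11.6%.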

How the data were processed

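Per the labels' protocols, 100 ng of DNA from each of the 44 libraries was prepared with an RRBS kit. The authors deposited the percent of reads methylated at each cytosine (0 to 100), in 9 tables of 1 tissue with saline and 1 LPS time each. The submitters' processing notes name methylKit, Bismark, Bowtie2, SAMtools, FastQC and Trim Galore with GRCm38 (mm10), with no version or role. Any coverage minimum is not given in the sources used here. Read counts are not given, so depth per library and its precision are unknown.

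From these values a tile mean was computed over the cytosines shared by all 9 tables, so that saline levels did not differ between tables. Autosomal tiles with at least 3 shared cytosines (66119) were tested on the percentage scale with limma 3.58.1 in R 4.3.3 (moderated test with trend), on the libraries of the groups compared. Differences of LPS responses between tissues were fitted over 44 libraries. Tiles near 0 or 100% were kept, so that every dense tile was tested. P-values were adjusted by Benjamini-Hochberg, and calls needed adjusted p under 0.05 and 5 points. The fit was tested on simulated data for blood at 6 h: of 50 tiles moved by 10 points 94% were called, and 9 of 65919 unmoved tiles. For hippocampus at 12 h 78% of 50 tiles moved by 5.5 points were called, and 98% of those moved by 10. The simulated noise was independent between tiles, so these shares do not cover shifts of whole libraries. The moved tiles were drawn at random from dense tiles, most of which lie near 0%, so the shares say little about tiles at higher levels. Promoter sequences and gene positions came from RefSeq GRCm38.p6.

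The members and gene lists were chosen with earlier results of these data known. Tiles named in the text were, per comparison, up to 4 (tissues: 5) largest called rises and falls whose groups do not overlap, the 8 highest in saline, 8 nearest 50% among those at 20 to 80% throughout, the 5 with most cytosines, and called members of the gene lists. The promoters printed were chosen after their values were seen. A result of 1 tile is not reported here, though the counts of called tiles include it. Replicate numbers did not pair the libraries by correlation, which cannot exclude that libraries of different tissues share a mouse. No copied libraries were found: at most 1.22% of values were equal within a group. Alternatives tried were each table's own cytosines, an arcsine square root scale, centred libraries, a filter on levels, no minimum difference, a joint fit, a replicate block, 50 cytosines as the limit, merged strands, and each library left out.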

Additional observations from a re-analysis of the deposited data

Results flagged for a closer look

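Among 363 sets of 4 libraries (the named tiles in 5 groups of 4, and the median dense tile in each group of 4), 21 held a library far from the other 3. Chance gives about 1 in 20. In saline blood the library set apart read 17.7% at Tmem151b and 90.2% at Abhd17a. In blood 6 h after LPS it read 75.0% at 2700081O15Rik, 22.9% at Zfp316 and 3.61% at Nrxn2 (the tile starting at 6531000 on chromosome 19). In hippocampus 6 h after LPS it read 7.5% at Rnf220, 3.34% at Dlx4os, 4.60% at Hoxd11 and 9.24% at that Nrxn2 tile. In saline cortex it read 9.53% at Zfp503, 1.17% at Ank, 1.0% at Otud4 and 2.63% at Irx5. In cortex 6 h after LPS it read 25.97% at Anks1b, 23.5% at Insm2, 26.3% at Pde4a, 2.69% at Gata6, 1.28% at Ank, 5.62% at Hoxd11 and 3.04% at Irx5. In cortex 12 h after LPS 1 library had a median dense tile of 0.673%, above the others.

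The blood response to LPS differed from that of each brain region by the test of the difference (limma, adjusted over all tiles). At 6 h that held for 2.16% of dense tiles against hippocampus and 1.83% against cortex, at 12 h for 2.12 and 2.24%, and at 24 h for 2.05 and 1.88%. Over all tiles the shares were higher, at 24.1 and 21.0%, 22.0 and 22.4%, and 22.5 and 20.5%, in the same order. These 6 comparisons share the blood libraries of each time and the saline libraries.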

How the results depend on the processing

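Values are the percent of dense tiles called, and the shares over all tiles under these settings are not given in this section. With libraries centred, LPS against saline blood gave 1.98, 2.49 and 2.16% at 6, 12 and 24 h, with more falls than rises at each time. Hippocampus at 6 h then gave 0.0185%, hippocampus against cortex after LPS 0.185% (6 higher, 4 lower), and LPS blood 88.8% against hippocampus and 3.46% against cortex. Differences of responses between blood and hippocampus gave 82.5, 71.8 and 48.6% when centred, and those between blood and cortex 1.996, 5.99 and 2.01%, with more falls. Also when centred, LPS 6 h blood minus hippocampus changed sign at Hoxd11 (-1.13 points), Hoxa2 (-0.36), Isl2 (-0.67, the tile starting at 55545000) and Hoxb7 (-1.54). Centring subtracts a mean over all tiles that differs between groups, so by construction tiles near 0% take on that difference. With no minimum difference, blood gave 12.5, 12.9 and 11.7% at the 3 times, saline blood 11.95% against hippocampus and 12.95% against cortex, LPS blood 22.6 and 22.8%, hippocampus against cortex 0.333% in saline and 0.684% after LPS. The differences of responses then gave 12.5, 11.3 and 11.1% (hippocampus) and 12.4, 12.9 and 11.1% (cortex).

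Hippocampus against cortex, with few calls, also moved with each table's own cytosines (0.129% in saline, 0.203% after LPS) and with all 44 libraries in the fit (0.148 and 0.259%), and the arcsine scale gave 0.0185% in saline. With the replicate block it gave 0.0% in saline and 0.0370% after LPS. Whether same-numbered libraries share a mouse is not known. No pair of groups had a correlation over 0.1 in every same-numbered pair. These correlations are of departures from group means, so between tissues they cannot exclude a shared mouse. With 1 library left out, hippocampus 12 h after LPS gave 0.0 to 0.277%, saline hippocampus against cortex 0.0 to 0.0185%, and the same after LPS 0.0185 to 0.0924%. The other settings, merged strands and the limit of 50 cytosines among them, kept each count within 1.5 times its value and its direction. Of 2813 alternatives for 174 values of named tiles, 2684 kept direction and side of the threshold, 125 lost the call (30 centred, 73 with a library left out) and 4 changed sign. The 2684 include alternatives that could not lose a call, since no minimum difference and the limit of 50 cytosines reuse the main fit. Many of these tiles were also chosen as the largest calls without overlap, so this count does not measure the stability of calls in general. The coverage minimum could not be varied, since the tables hold no counts, and depth limits cannot be stated.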
